A study of Mus musculus with 54 samples.

Results

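Rad21 sites were compared between neural progenitor cells (NPCs) and mouse embryonic stem cells (ESCs) of 1 rescue line, with 2 ChIP-seq libraries of each cell type. The members are the 12921 sites obtained by merging overlapping Rad21 peaks of these 4 libraries, out of the 44 samples with a peak list among the 54 samples of the series. Of the 12921 sites, 422 were called in both NPC libraries and in neither ESC library (NPC-only sites), 426 in both ESC libraries and in neither NPC library (ESC-only sites), and 2106 in all 4 libraries (shared sites). The remaining sites were called in other combinations of libraries, 3502 of them in ESC replicate 2 alone. Of the switched sites 1 ESC-only site and 0 NPC-only sites lay on the mitochondrial genome.

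Both cell types came from the same clone of E14 ESCs. Both endogenous CTCF alleles carried a mAID-eGFP degron, 1 Rosa26 allele carried OsTIR1(F74G), Hb9 carried an mCherry reporter on both alleles, and a doxycycline-inducible Flag-Halo-CTCF wild-type (WT) transgene sat at Tigre. NPCs had been differentiated for 2 days in N2B27 medium and ESCs had been kept undifferentiated. Before harvest both cell types were treated for 24 h with 5-Ph-IAA at 1 µM to degrade the tagged endogenous CTCF and with doxycycline at 1 µg/ml to express the transgene. Other libraries of the same line (CTCF and Smc3), and of a line rescued with CTCF lacking zinc finger 1 (ΔZF1), are used as readouts that did not define the sites. CTCF libraries of parental E14 NPCs are cited where named. These cells carried neither the degron nor the transgene, and no 5-Ph-IAA or doxycycline is listed for them. Peak lists hold no transcript levels, so the identity of the cells could not be checked against markers, and a site bound in fewer cells cannot be told apart from one bound less in every cell.

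Rad21 is the kleisin subunit that closes the cohesin ring, and Smc3 is one of the SMC proteins of the same ring. Cohesin extrudes chromatin loops and is halted by CTCF bound to its motif, so that most focused cohesin peaks in mammalian cells lie on CTCF sites. Cohesin is also found at active promoters and near the ends of transcribed genes, where CTCF can be absent.

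The sequences at the leading switched sites show what lay under the summits. They are the 4 strongest NPC-only and the 4 strongest ESC-only sites with a CTCF motif, and the strongest shared site, each as 60 bases of the plus strand of mm10 (GRCm38). Capitals mark the match to the core of the CTCF motif, searched on both strands as CCA, 2 free bases, AG, 2 free bases, GGC with at most 1 mismatch, so a match on the minus strand reads as its reverse complement.

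NPC-only, near Chrna2 (chr14:66147715-66147774): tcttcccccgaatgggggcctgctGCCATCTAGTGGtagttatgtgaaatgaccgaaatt
NPC-only, near Gm43154 (chr6:31639632-31639691): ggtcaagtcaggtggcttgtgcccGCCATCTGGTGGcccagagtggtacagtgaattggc
NPC-only, near 4933427D06Rik (chr6:89005278-89005337): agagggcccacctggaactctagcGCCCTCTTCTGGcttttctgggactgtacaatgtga
NPC-only, near Mlnr-ps (chr14:72516550-72516609): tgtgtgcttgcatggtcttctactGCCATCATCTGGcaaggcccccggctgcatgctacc
ESC-only, near 6030471H07Rik (chr4:84064796-84064855): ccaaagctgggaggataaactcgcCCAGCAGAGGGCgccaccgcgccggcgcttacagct
ESC-only, near AC151270.1 (chr17:78455279-78455338): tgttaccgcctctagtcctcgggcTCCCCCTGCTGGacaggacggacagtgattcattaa
ESC-only, at Rhno1 (chr6:128359175-128359234): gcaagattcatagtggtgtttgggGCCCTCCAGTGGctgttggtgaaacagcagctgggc
ESC-only, at Nudt17 (chr3:96708542-96708601): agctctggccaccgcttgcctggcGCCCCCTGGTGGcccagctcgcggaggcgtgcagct
Shared, in Gm38708 (chr6:88189608-88189667): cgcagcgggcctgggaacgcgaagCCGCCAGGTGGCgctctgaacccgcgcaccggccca

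The match lay between 7 and 26 bp from the summit at these 9 sites. It had no mismatch at the sites near Chrna2, Gm43154, 4933427D06Rik, 6030471H07Rik and Nudt17, and 1 mismatch at the other 4.

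The number of peaks differed more between replicates than between cell types. The NPC libraries held 4774 and 8144 peaks, against 3539 and 10415 peaks in the ESC libraries. The mean log2 number of peaks was 12.6 ± 0.54 in NPCs and 12.6 ± 1.1 in ESCs (SD, n = 2 each), a difference of 0.04 (two-sided exact permutation test, p = 1.0, where 2 against 2 libraries can reach no p below 0.333). The lowest background of a library, in fragments per bp, serves as a relative depth and was 2.06 and 3.20 in the NPC libraries, against 2.18 and 3.72 in the ESC libraries. In each cell type the library with the higher background had the longer list. Peaks had a median width of 178 and 225 bp in NPCs, against 172 and 218 bp in ESCs, and a median fold enrichment over local background of 7.03 and 6.73 in NPCs, against 6.44 and 6.56 in ESCs. A CTCF motif was found no more than 50 bp from the summit at 79.9% and 78.5% of NPC peaks, against 79.0% and 80.9% of ESC peaks, and the summit lay within 1 kb of a transcription start site (TSS) at 16.5% and 15.6%, against 20.1% and 14.6%.

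Similarity between lists followed their length as well as the cell type. The Jaccard index (shared over united sites) was 0.456 between the NPC replicates and 0.306 between the ESC replicates. Between cell types it ran from 0.314 to 0.485, and the highest value belonged to the long lists of NPC replicate 2 and ESC replicate 2. With each list reduced to its 3539 peaks with the lowest q-value (equal peak numbers), it was 0.566 between the NPC replicates and 0.471 between the ESC replicates, against 0.387 to 0.506 between cell types. No 2 lists had more than 1 identical peak interval.

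The first comparison asks which Rad21 sites were particular to one cell type. The NPC-only sites made up 3.27% of all merged sites and the ESC-only sites 3.30%, so the counts in the 2 directions were alike. At equal peak numbers 440 of 6221 sites (7.07%) were NPC-only and 363 (5.84%) were ESC-only. The sets behind these counts differed. Of the 440 sites, 334 had a peak in the full list of ESC replicate 2, and of the 363 sites 226 had a peak in the full list of an NPC library. Thus 106 of the 422 NPC-only sites and 137 of the 426 ESC-only sites were called for 1 cell type by full lists and by lists of equal length alike. Leaving out a library moved the counts by more than 1.5 times in several cases. The NPC-only count was 2019 without NPC replicate 1, 708 without NPC replicate 2 and 1895 without ESC replicate 2, and the ESC-only count was 1040 without NPC replicate 2 and 3930 without ESC replicate 1.

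**Figure D1:**
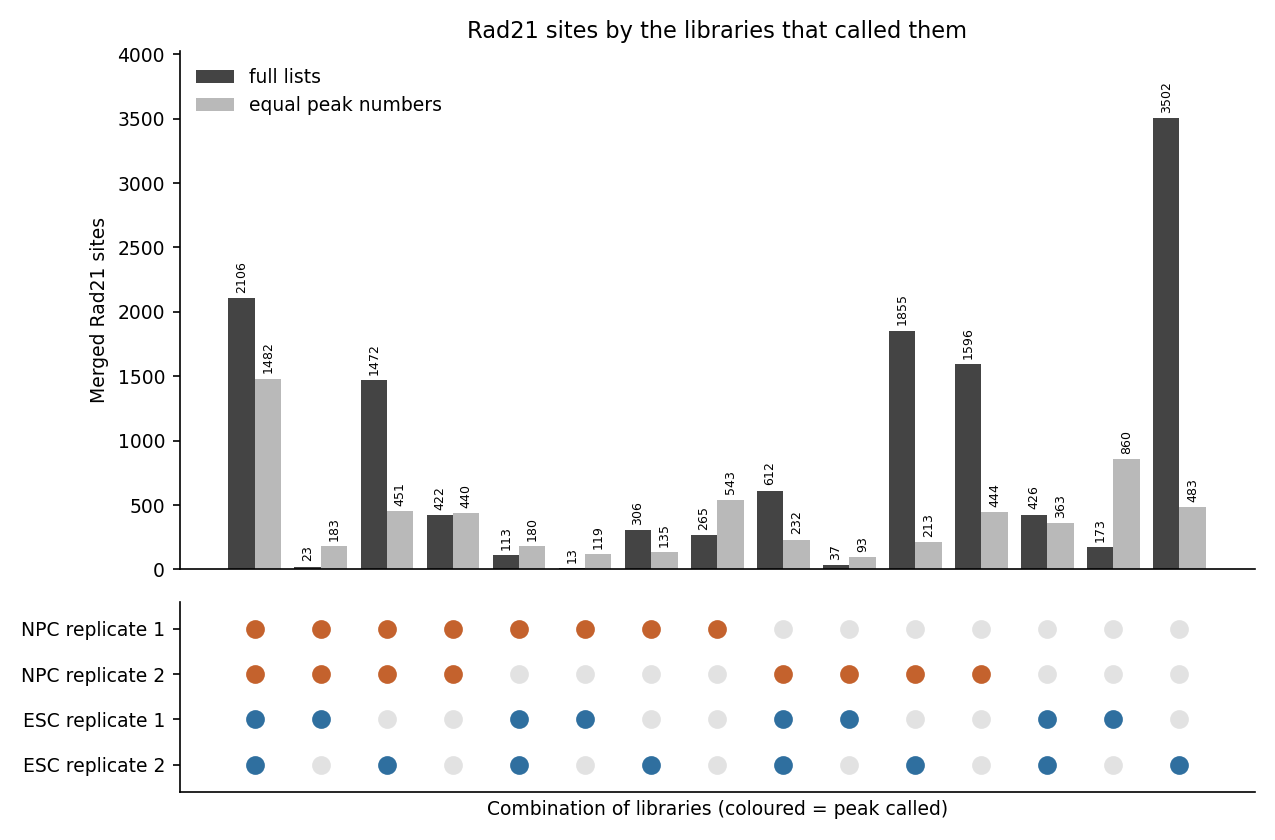
Number of merged Rad21 sites (vertical axis) for each combination of the 4 libraries that called them, with full lists in dark bars and lists of equal peak numbers in light bars. Coloured points mark the calling libraries, NPC in orange and ESC in blue. Sites called by ESC replicate 2 alone (3502) and by all 4 libraries (2106) were the most numerous with full lists, and the 422 NPC-only and 426 ESC-only sites were a minority.

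Most reproducible sites of one cell type were found in the other. Of the 4023 sites called in both NPC libraries, 52.3% (95% Wilson interval 50.8% to 53.9%) were called in both ESC libraries, 1495 in 1 of them and 10.5% (9.58% to 11.5%) in neither. Of the 3257 sites called in both ESC libraries, 64.7% (63.0% to 66.3%) were called in both NPC libraries, 725 in 1 of them and 13.1% (11.96% to 14.3%) in neither. At equal peak numbers 58.0% of the NPC sites and 65.7% of the ESC sites were called in both libraries of the other cell type, and 17.2% and 16.1% in neither. These intervals cover counting error only.

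The absence of a site from the other cell type went with its strength. Sites called in both NPC libraries were divided into quartiles by the mean percentile of their q-value in the 2 lists, and 25.2%, 10.4%, 5.27% and 0.994% were absent from both ESC lists, in order from the weakest to the strongest quartile. Of the ESC sites 247, 114, 53 and 12 were absent from both NPC lists, which was 30.3% of the weakest and 1.47% of the strongest quartile. In the strongest quartile 81.8% of NPC sites were called in both ESC libraries and 92.1% of ESC sites in both NPC libraries. Thus 10 of the 422 NPC-only sites and 12 of the 426 ESC-only sites belonged to the strongest quartile. The median percentile was 35.9 at NPC-only sites and 42.1 at ESC-only sites, against 73.3 at shared sites and 40.2 at all merged sites.

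**Figure D2:**
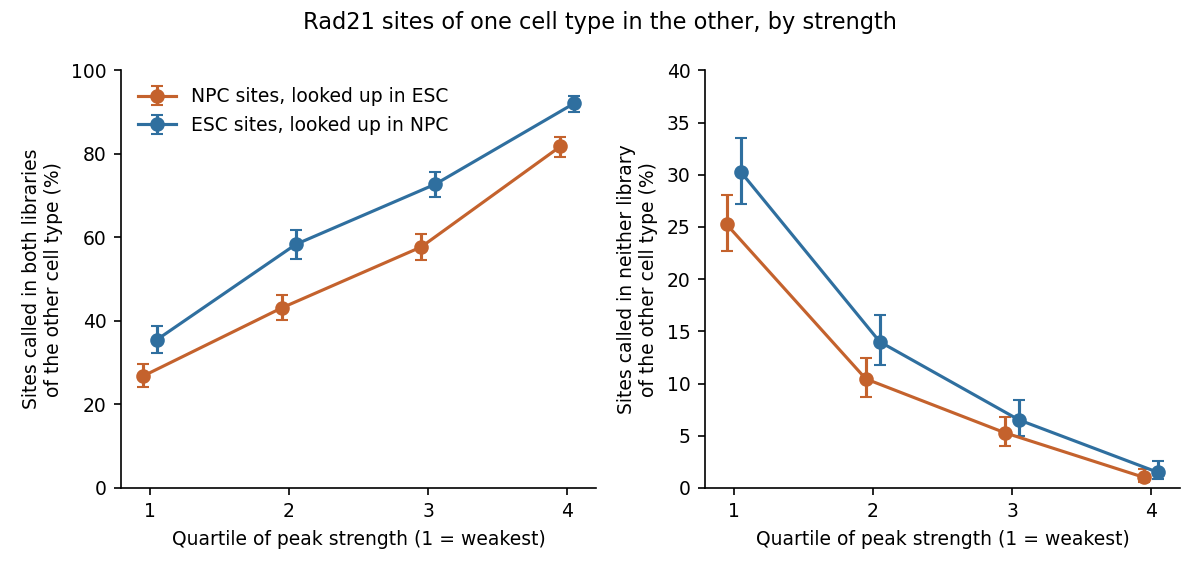
Share of the Rad21 sites of one cell type that were called in both libraries (left) or in neither library (right) of the other cell type, in quartiles of the mean percentile of the q-value. Points are percentages of 1005 or 1006 NPC sites (orange) and 814 or 815 ESC sites (blue), and bars are 95% Wilson intervals. Absence from both lists of the other cell type fell to 0.994% of NPC sites and 1.47% of ESC sites in the strongest quartile.

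The strongest NPC-only sites lay mostly in introns and between genes. The number of fragments at a summit, which the fold enrichment and the p-value together determine, is given for each calling library. Where no peak was called the number of fragments is not known. The peak caller's threshold is on the q-value, which depends on local background as well as on fragments. All 10 were also NPC-only at equal peak numbers. The site with the highest mean percentile (88.2) lay near 4930488N24Rik (chromosome 17, 14100467 to 14101633), with 49 and 75 fragments in the NPC libraries, and held no CTCF motif and no CTCF peak in the 8 WT rescue libraries, while both CTCF libraries of parental E14 NPCs had a peak there. An intron of Chrna2, which encodes a nicotinic acetylcholine receptor subunit, held a site (chromosome 14, 66147639 to 66147864) with 39 and 54 fragments and a fold enrichment of 11.8 and 11.7.

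A site in an intron of Gm43154 (chromosome 6, 31639504 to 31639748) had 42 and 74 fragments, and lay 75.7 kb upstream of the nearest TSS of Podxl, the gene of the sialomucin podocalyxin. It was called in 1 or more libraries of every other NPC group of WT or ΔZF1 cells, and in 3 of 4 WT CTCF ESC libraries and both WT Smc3 ESC libraries as well. An intron of 4933427D06Rik (chromosome 6, 89005190 to 89005382) held 44 and 71 fragments. The region near the pseudogene Mlnr-ps (chromosome 14, 72516489 to 72516751) held 34 and 66 fragments, with CTCF peaks in 3 of 4 NPC and 3 of 4 ESC libraries but Smc3 peaks in both NPC and neither ESC library. It and the 4930488N24Rik site were the 2 of the 10 without an Smc3 peak in WT ESCs.

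An intron of Arhgap23 held a site (chromosome 11, 97468976 to 97469225) with 52 and 72 fragments. A coding exon of Mcidas, a regulator of the multiciliated cell fate, held one (chromosome 13, 112994247 to 112994568) with 41 and 63 fragments, 562 bp from the TSS, and all 8 WT CTCF libraries called it. The remaining 3 lay in an intron of 4930556J02Rik and near Gm13529 and Gm20745, with 32 to 43 fragments in NPC replicate 1 and 47 to 60 in NPC replicate 2. All had an Smc3 peak in both WT NPC libraries except the 4930488N24Rik site, which had one in 1 of them. In ΔZF1 NPCs 6 of the 10 had a Rad21 peak in at least 1 library, and in ΔZF1 ESCs only the 4930556J02Rik site did.

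Among the strongest ESC-only sites several lay at promoters. All 10 were also ESC-only at equal peak numbers. The first, in a UTR of Ceacam19, a gene of the carcinoembryonic antigen family (chromosome 7, 19877128 to 19877501), had 45 and 87 fragments in the ESC libraries and a mean percentile of 94.4. It held no CTCF motif, no Smc3 peak in any of the 4 WT libraries and a CTCF peak in 0 of 8 WT libraries, while both Rad21 ΔZF1 ESC libraries called it and neither Rad21 ΔZF1 NPC library did. The site near 6030471H07Rik (chromosome 4, 84064670 to 84065091) had 40 and 89 fragments and that near AC151270.1 (chromosome 17, 78455188 to 78455414) 44 and 68.

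Within 250 bp of a TSS lay the sites in a coding exon of Rhno1, a DNA damage response gene (chromosome 6, 128359014 to 128359319, 46 and 93 fragments), and in the UTR of Nudt17, a Nudix hydrolase gene (chromosome 3, 96708413 to 96708670, 51 and 60 fragments). So did those in an intron of Zdhhc19, a palmitoyltransferase gene (chromosome 16, 32499719 to 32499979, 56 and 104 fragments), and upstream of Lsm11, which encodes a subunit of the U7 snRNP (chromosome 11, 45944907 to 45945132, 65 and 107 fragments). CTCF was called there in all 8 WT libraries at Nudt17, at Zdhhc19 and at Lsm11, and in 2 NPC and 4 ESC libraries at Rhno1. The other 3 lay in introns of Gm29502 and 4930479D17Rik and near Gm13203, with 33 to 48 fragments in ESC replicate 1 and 58 to 74 in ESC replicate 2. Apart from Ceacam19, every one of the 10 had an Smc3 peak in both WT ESC libraries and in at least 1 WT NPC library. Both Rad21 ΔZF1 ESC libraries called the 6030471H07Rik, Rhno1 and Nudt17 sites, and 1 called the 4930479D17Rik site. The Zdhhc19 site had the reverse pattern, with a peak in both Rad21 ΔZF1 NPC libraries and in neither of ESCs. Of these NPC libraries 1 called the 6030471H07Rik, Rhno1, Gm29502 and Gm13203 sites. The AC151270.1 and Lsm11 sites had no Rad21 peak in the ΔZF1 line.

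The strongest shared site lay in an intron of Gm38708 (chromosome 6, 88189405 to 88189909), with 128 and 196 fragments in NPCs and 151 and 284 in ESCs. The site near Hif1an, which encodes the asparaginyl hydroxylase that inhibits HIF (chromosome 19, 44582593 to 44583052), had 91 and 151 fragments in NPCs, against 99 and 197 in ESCs. The other 3 of the first 5 lay near Gm24830, in Scarna2, a small Cajal body RNA gene, and near Gm16079. None of the 5 but Gm38708 held the CTCF motif by the pattern used. At Gm24830 and Gm16079 none of the 8 WT CTCF libraries had a peak, and at Gm16079 none of the 4 WT Smc3 libraries did either.

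Switched sites were CTCF sites for the most part, and NPC-only sites somewhat less often than others. The motif lay within 50 bp of the summit at 71.6% of NPC-only sites (67.1% to 75.7%) and 78.9% of ESC-only sites (74.7% to 82.5%), against 83.0% of shared and 78.2% of all merged sites. In windows 1000 bp away it was found at 9.48%, 8.69%, 9.83% and 9.66%. A CTCF peak was called in at least 1 of the 8 WT CTCF libraries at 85.3% of NPC-only, 90.6% of ESC-only and 95.4% of shared sites, against 89.5% of all merged sites, and in all 8 at 17.8%, 29.1% and 48.1%, against 24.2% of all merged sites. The 106 NPC-only and 137 ESC-only sites that held at equal peak numbers carried the motif at 83.0% and 85.4%, and 2.83% and 4.38% of them had no CTCF peak. At equal peak numbers the motif lay at 83.9% of NPC-only, 83.2% of ESC-only and 84.9% of shared sites, so the lower share at NPC-only sites was not seen with lists of equal length. These are descriptions of sites, which are not replicates of a condition.

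**Figure D3:**
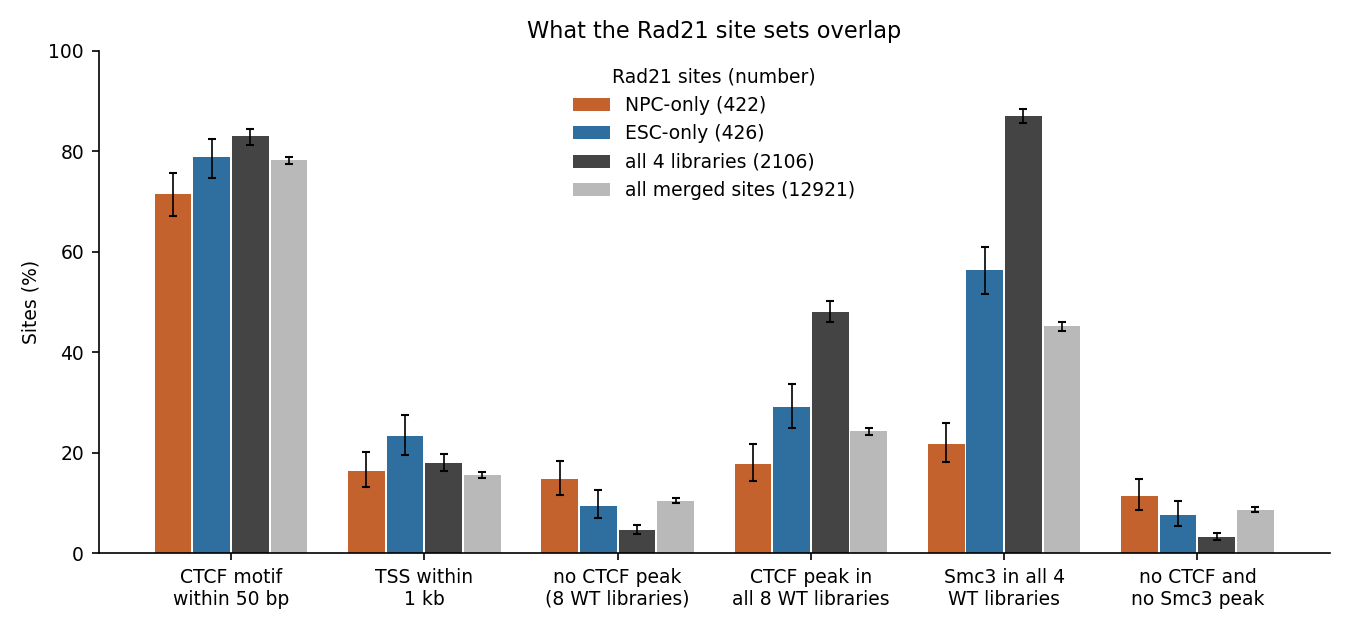
Percentage of NPC-only, ESC-only, shared (all 4 libraries) and all merged Rad21 sites that hold the CTCF motif, lie within 1 kb of a TSS, or overlap CTCF or Smc3 peaks of the WT rescue libraries. Bars are percentages with 95% Wilson intervals, and the number of sites stands in the legend. Smc3 was called in all 4 WT libraries at 21.8% of NPC-only, 56.3% of ESC-only and 87.1% of shared sites.

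The share of sites near promoters depended on list length. The summit lay within 1 kb of a TSS at 16.4% of NPC-only sites (13.1% to 20.2%) and 23.2% of ESC-only sites (19.5% to 27.5%), against 17.9% of shared and 15.5% of all merged sites. The sites that held at equal peak numbers as well had shares of 9.43% (NPC-only) and 16.8% (ESC-only). At equal peak numbers alone these shares were 13.2%, 15.4% and 17.1% at NPC-only, ESC-only and shared sites. Introns held 37.7% of NPC-only and 34.3% of ESC-only summits, and 45.3% and 40.8% were intergenic. The region within 1 kb upstream of a gene held 5.69% and 10.6%. Over all merged sites 40.8% of summits lay in introns, 44.15% were intergenic and 5.87% lay in that upstream region. The median GC content within 50 bp of the summit was 54.5% at NPC-only and 56.4% at ESC-only sites, against 56.4% at shared sites.

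A minority of switched sites had neither CTCF nor Smc3. No CTCF and no Smc3 peak of the WT rescue was found at 11.4% of NPC-only sites (48 sites) and 7.51% of ESC-only sites (32 sites), against 3.23% of shared and 8.63% of all merged sites. Among the 48 NPC-only sites, 20 were called by both Rad21 ΔZF1 libraries of NPCs and by neither of ESCs. Among the 32 ESC-only sites 11 had the reverse pattern, with a peak in both Rad21 ΔZF1 libraries of ESCs and in neither of NPCs. Over all merged sites these patterns without CTCF and Smc3 were found at 100 sites (0.774%, NPC pattern) and 29 sites (0.224%, ESC pattern). Besides the Ceacam19 site, the 3 strongest of the 11, named after their values were seen, lay near Spp1, the osteopontin gene (chromosome 5, 104441439 to 104442720, 21 and 68 fragments in the ESC libraries), near Esrrb, an orphan nuclear receptor of the pluripotency network (chromosome 12, 86524537 to 86525374, 27 and 62 fragments), and in an intron of Wscd2 (chromosome 5, 113506749 to 113507149, 24 and 64 fragments). These 4 were ESC-only at equal peak numbers as well, and the other 7 were not. The Meg3 and Mest sites belonged to the 20 NPC-only sites. Short motifs of other factors were rare within 50 bp of the summit. The octamer ATGCAAAT of POU factors lay at 0.237% of NPC-only and 0.235% of ESC-only sites, against 0.248% of all merged sites, and the E-box CAGCTG at 4.98% and 6.82%, against 6.48%. The SOX motif AACAATGG was found at 1 NPC-only and 0 ESC-only sites, which allows a share of up to 0.896% (upper Wilson bound) among the ESC-only sites.

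The CTCF libraries, which did not define the sites, address whether CTCF occupancy differed along with Rad21. CTCF was called in 3 or 4 libraries of both cell types at 39.3% of NPC-only and 56.6% of ESC-only sites, in 3 or 4 NPC but under 3 ESC libraries at 9.24% and 3.99%, and in 3 or 4 ESC but under 3 NPC libraries at 14.7% and 16.9%. Over all merged sites these shares were 47.8%, 4.33% and 17.0%, so ESC-only sites lay at the background for CTCF mainly in ESCs. CTCF in all 4 NPC and no ESC libraries was found at 1 NPC-only site, and the reverse at 0 ESC-only sites. In every CTCF library fewer NPC-only than ESC-only sites had a peak. The difference, in percentage points, was −8.87 ± 3.1 in NPC libraries and −14.5 ± 6.5 in ESC libraries (SD, n = 4 each), so it lay 5.66 points higher in NPCs (two-sided exact permutation test, p = 0.171, adjusted over the 2 CTCF lines p = 0.171). For the ΔZF1 CTCF libraries it was −11.6 ± 6.9 in NPCs and −18.1 ± 6.0 in ESCs, a difference of 6.42 points (exact permutation test, p = 0.171, adjusted p = 0.171).

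CTCF lists held 15052 to 30555 peaks in NPCs and 11189 to 43003 in ESCs, so the libraries were also compared at equal list length. With every WT CTCF list reduced to 11189 peaks, NPC libraries covered 32.7%, 42.7%, 40.5% and 28.0% of NPC-only sites and 37.3%, 50.2%, 49.1% and 35.7% of ESC-only sites. ESC libraries covered 36.5%, 39.6%, 33.4% and 28.7% of NPC-only sites and 64.6%, 63.1%, 52.8% and 51.4% of ESC-only sites. At NPC-only sites the groups of libraries overlapped, and at ESC-only sites all 4 ESC libraries lay above all 4 NPC libraries. The difference was −7.12 ± 1.7 points in NPC and −23.4 ± 3.6 points in ESC libraries (SD, n = 4 each), 16.3 points higher in NPCs (exact permutation test, p = 0.0286, the smallest that 4 against 4 can give, adjusted over the 2 lines p = 0.0571). Over all settings tried p ran from 0.0286 to 0.4. In the ΔZF1 libraries at 5755 peaks each the difference was 4.80 points (exact permutation test, p = 0.257).

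The CTCF libraries of the WT line differ in kind by replicate number: median peak widths were 353 to 447 bp in replicates 1 and 4 and 273 to 301 bp in replicates 2 and 3, and the labels name no batch. Within these pairs of replicates the WT difference was 8.52 and 2.80 points with full lists, and 19.2 and 13.4 points at equal length. The peak names inside the lists of replicate 4 carry the number 2, and whether replicate 4 is a separate library was not settled. Without it the differences were 2.52 and 16.8 points (exact permutation tests of 3 against 3 libraries, p = 0.5 and p = 0.1, where 0.1 is the smallest possible). Within the same pairs the ΔZF1 difference at equal length was 8.33 and 1.28 points.

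Smc3, the other cohesin subunit measured, was found at each set more often in the cell type that had defined it once lists were of equal length. The NPC-only sites had a WT Smc3 peak at 86.7% and 73.0% in the NPC libraries, against 69.9% and 22.0% in the ESC libraries. The ESC-only sites had one at 89.4% and 65.96% in NPCs, against 91.1% and 70.0% in ESCs. Smc3 lists held 27798 and 13710 peaks in NPCs, against 17880 and 8169 in ESCs. With each reduced to 8169 peaks, NPC-only sites were covered at 59.0% and 58.8% in NPCs, against 28.7% and 22.0% in ESCs, and ESC-only sites at 53.1% and 51.2% in NPCs, against 72.3% and 70.0% in ESCs. The cell types did not overlap at either set. The difference between the sets was 36.7 points higher in NPCs with full lists and 52.5 points at equal length (n = 2 each, where no p under 0.333 can be had). A full switch of Smc3 was rare. Peaks in both NPC and neither ESC library were found at 43 NPC-only sites (10.2%), 2 ESC-only sites (0.47%) and 4 shared sites (0.19%). Over all merged sites 342 (2.65%) had this pattern. The reverse was found at 3 ESC-only sites (0.704%) and 0 NPC-only sites, against 18 of all merged sites (0.139%).

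The line rescued with ΔZF1 CTCF gave a second set of NPC and ESC Rad21 libraries. NPC-only sites of the WT line had a Rad21 peak at 41.7% and 58.1% in ΔZF1 NPCs, against 0.711% and 2.84% in ΔZF1 ESCs. ESC-only sites had one at 14.1% and 19.3% in ΔZF1 NPCs, against 11.3% and 20.9% in ΔZF1 ESCs. The ΔZF1 Rad21 lists were shorter in ESCs, with 5117 and 6080 peaks in NPCs against 1306 and 2347 in ESCs. With each reduced to 1306 peaks, NPC-only sites were covered at 5.21% and 7.58% in NPCs, against 0.711% and 0.948% in ESCs, and ESC-only sites at 0.939% and 0.47% in NPCs, against 11.3% and 7.04% in ESCs. Each set was thus covered more often in the cell type that had defined it, by both libraries, and the difference between the sets was 14.02 points higher in NPCs, against 47.5 points with full lists. With full lists, 129 NPC-only sites (30.6%) and 428 shared sites (20.3%) were called in both ΔZF1 NPC and in neither ΔZF1 ESC library. This pattern was also found at 17 ESC-only sites (3.99%), and at 1771 of all merged sites (13.7%). The reverse was found at 23 ESC-only sites (5.40%), 0 NPC-only sites and 14 shared sites (0.665%), against 68 of all merged sites. Smc3 of the ΔZF1 line gave a difference of 23.4 points with full lists and 39.3 points at equal length.

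**Figure D4:**
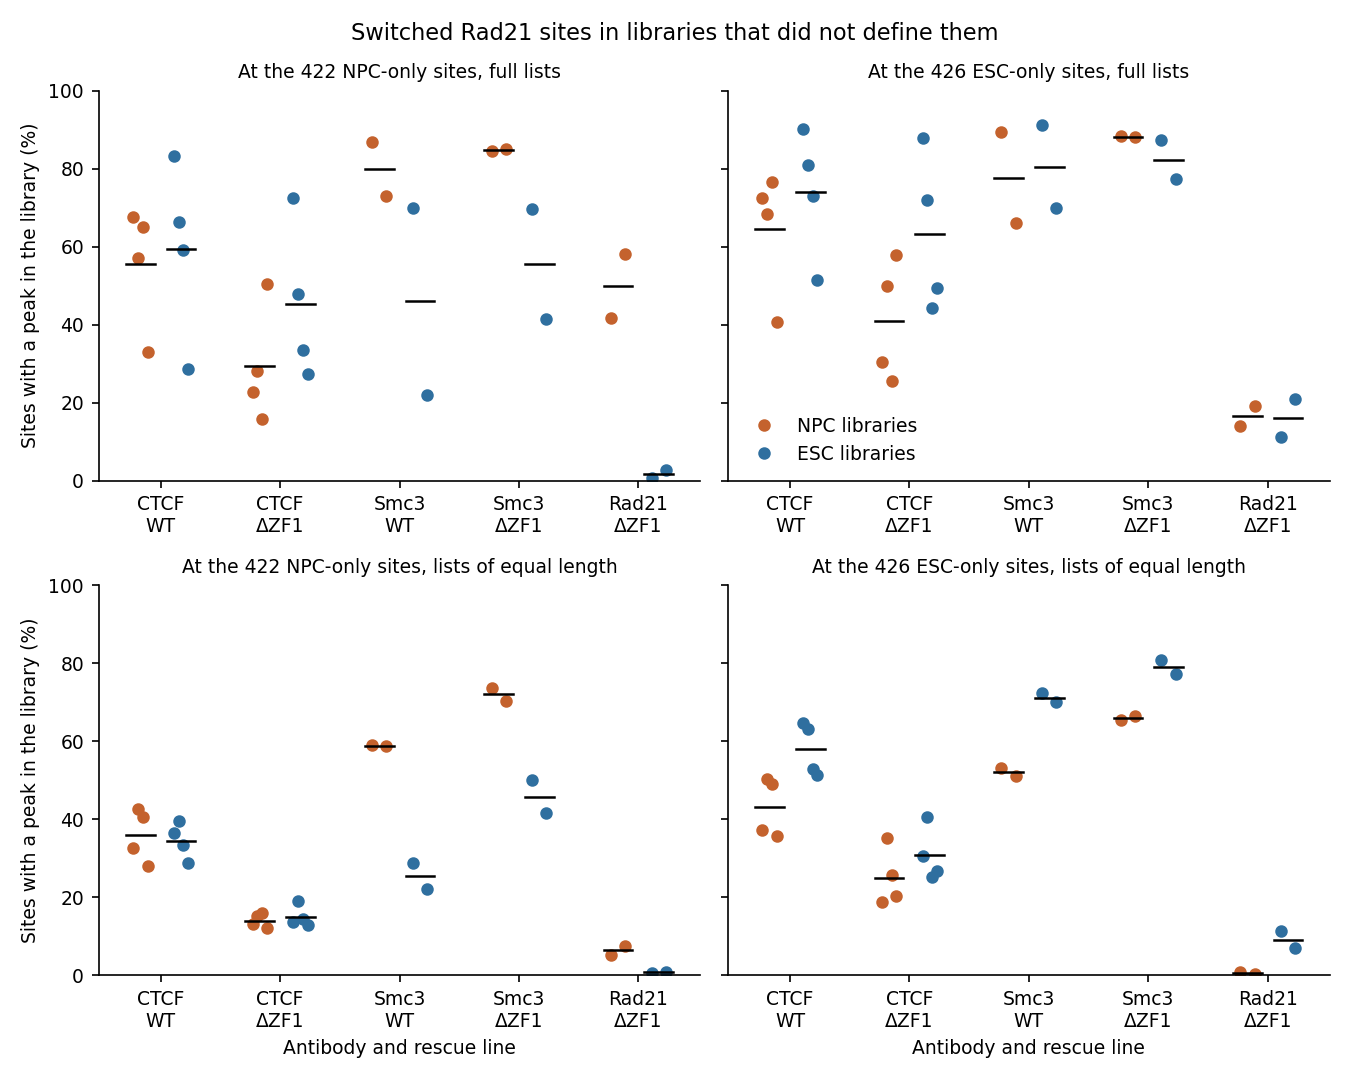
Percentage of the 422 NPC-only (left) and 426 ESC-only (right) Rad21 sites with a peak in each library that did not define them, with full lists (top) and with the lists of an antibody and line reduced to equal length (bottom). Each point is a library, NPC in orange and ESC in blue, and lines are means. At equal length the Smc3 libraries of the WT line covered 59.0% and 58.8% of NPC-only sites in NPCs, against 28.7% and 22.0% in ESCs.

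Agreement over lines and antibodies at single sites was rarer. At 14 NPC-only sites both Rad21 ΔZF1 and both WT Smc3 libraries of NPCs had a peak and none of ESCs did. Of the shared sites 0 had that pattern, but 87.1% of them had Smc3 in all 4 WT libraries. The pattern was not counted over all merged sites, so no background share stands beside the 14. The call for NPCs alone was kept at equal peak numbers by 6 of the 14. At 1 ESC-only site, in an intron of Gm10718 (chromosome 9, 3024163 to 3024410), the reverse held, and this site was not ESC-only at equal peak numbers. Apart from the Mlnr-ps site the strongest of the 14, named here after their values were seen, lay in an intron of Atad1, an AAA ATPase of membrane protein quality control (chromosome 19, 32715259 to 32715508), with 40 and 55 fragments in the NPC libraries. Among them was also a site 1850 bp upstream of Hoxd12, a posterior Hox gene (chromosome 2, 74673076 to 74673279), with 33 and 43 fragments and a CTCF peak in all 8 WT libraries. The site 54 bp upstream of Rpl10a, a ribosomal protein gene (chromosome 17, 28328073 to 28328669), had 28 and 35. The Hoxd12 and Rpl10a sites were not NPC-only at equal peak numbers, and the Atad1 site was. Smc3 of the ΔZF1 line was not part of the pattern. In ΔZF1 ESCs 2 Smc3 libraries called the Atad1 and Rpl10a sites and those assigned to Ccdc155, Gm12162 and Pnliprp2. The Csf2 and Olfr1398-ps1 sites were called in 1, and the others of the 14, with Mlnr-ps and Hoxd12, in 0.

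Listed genes held few switched sites. A gene was counted where its body or the 1 kb upstream of it held the summit. Of 21951 protein-coding genes 195 (0.888%) held an NPC-only site, 228 (1.04%) an ESC-only site and 899 a shared site. None of 38 neural progenitor genes or 19 neuron genes held a switched site, and 1 in each of these lists held a shared site. Of 32 pluripotency genes 1 held an ESC-only site and 0 an NPC-only site. It was Tet1, which encodes an oxidase of 5-methylcytosine (chromosome 10, 62890839 to 62892060, intronic), with 17 and 29 fragments in the ESC libraries and no CTCF or Smc3 peak in the WT line. The call in ESC replicate 1 was weak (−log10 q of 2.68), and the site was not ESC-only at equal peak numbers or at a −log10 q of at least 5. Of 18 mesoderm and endoderm genes only Eomes, a T-box factor of mesendoderm, held one, in a coding exon 386 bp from the TSS (chromosome 9, 118479154 to 118479346, 35 and 38 fragments), and all 8 WT CTCF and all 4 WT Smc3 libraries had a peak there. It was not ESC-only at equal peak numbers. Of 39 Hox genes and 22 genes of the loop machinery 0 held a switched site, and 6 and 2 held a shared site.

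Imprinted genes held 3 of the NPC-only and 0 of the ESC-only sites. Of 46 such genes 12 held a shared site. Meg3, a maternally expressed non-coding RNA gene, held an intronic NPC-only site (chromosome 12, 109552826 to 109555131) with 28 and 45 fragments. Mest, a paternally expressed hydrolase gene, held one (chromosome 6, 30743765 to 30744259) with 22 and 26 fragments. Both lacked a CTCF motif and any CTCF or Smc3 peak of the WT line, and both were called in the 2 Rad21 ΔZF1 NPC libraries and in neither of ESCs. Usp29, a paternally expressed deubiquitinase gene, held an intronic NPC-only site with a motif without mismatch (chromosome 7, 6937143 to 6937408, 20 and 33 fragments). At equal peak numbers none of the 3 was NPC-only.

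The clustered protocadherin genes encode cell-surface proteins of neurons whose promoters bind CTCF. Of 57 genes 17 held an ESC-only site and 0 an NPC-only site, but these are 2 sites that lie in the overlapping bodies of many γ genes. One lay 37 bp upstream of the TSS of Pcdhgb7 (chromosome 18, 37751476 to 37751673), with 26 and 32 fragments in the ESC libraries. The other lay 15 bp upstream of that of Pcdhga11 (37755599 to 37755828), with 21 and 40 fragments. CTCF was called at the Pcdhgb7 site in all 8 and at the Pcdhga11 site in 3 NPC and 3 ESC WT libraries, and neither site was ESC-only at equal peak numbers.

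Podxl and Grb10, whose transcripts were truncated in other lines of the study, held no switched site. Grb10, an imprinted adaptor gene, held a shared intronic site (chromosome 11, 11973318 to 11973737) with 38 and 64 fragments in NPCs and 48 and 146 in ESCs. Its UTR site (12025765 to 12026049) was called in NPC replicate 2 with 68 fragments and in both ESC libraries with 39 and 77. Another intronic site of Grb10 (11974985 to 11975216) was called in ESC replicate 2 only, with 49 fragments. Rad21 of the ΔZF1 line was called there in 2 NPC libraries and 1 ESC library. In Podxl the 2 intronic sites (chromosome 6, 31525614 to 31525776 and 31528019 to 31528208) were called in ESC replicate 2 only, with 57 and 52 fragments. That list was the longest of the 4, with 10415 peaks. WT Smc3 was called at both sites in 2 NPC libraries and 1 ESC library. Rad21 of the ΔZF1 line was called in 2 NPC libraries at the first site and 1 at the second, and in 0 ESC libraries. WT CTCF was called in 4 NPC and 4 ESC libraries at the first site, and in 2 and 3 at the second.

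The last comparison concerned the fold enrichment of the 2106 shared sites. Fold enrichment was ranked within each library, ranks were turned into normal scores, and the scores were compared with limma, so an effect is in SD units of the score and says that a site stood higher or lower among the shared sites. Fold enrichment is a ratio to local background, so a higher rank need not mean more fragments at the summit. After Benjamini-Hochberg adjustment 106 sites (5.03%) ranked higher and 88 sites (4.18%) lower in NPCs at a threshold of 0.05, with differences of at least 1.38 SD units. An unadjusted p under 0.05 was found at 571 sites. With the replicate number as a block (replicate block) 58 ranked higher and 44 lower, and with ranks of the q-value 25 and 11. Without ESC replicate 1 the counts were 21 and 29, and without ESC replicate 2 they were 36 and 25. Of the 21 and 29 sites called without ESC replicate 1, 8 and 22 were among the 106 and 88, and of the 36 and 25 without ESC replicate 2, 32 and 20 were.

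Several of the sites that ranked highest in NPCs were wide and lacked CTCF. At Hist4h4, a histone H4 gene (chromosome 6, 136803208 to 136804429, UTR), fold enrichment was 15.8 and 16.5 in NPCs, against 3.33 and 3.23 in ESCs. Fragments at the summit differed less, with 92 and 128 in NPCs, against 54 and 77 in ESCs. The score difference was 4.56 ± 0.40 (SE, n = 2 each, limma adjusted p = 1.29e-04). At Serbp1, which encodes an mRNA-binding protein (chromosome 6, 67291731 to 67295359, UTR), it was 26.2 and 30.9 in NPCs, against 6.05 and 8.99 in ESCs (3.32 ± 0.40, limma adjusted p = 0.00214). At Ptms, the gene of parathymosin (chromosome 6, 124914744 to 124916611, 16 bp from the TSS), it was 21.8 and 26.1 in NPCs, against 5.83 and 10.0 in ESCs (3.02 ± 0.42, limma adjusted p = 0.00349). No CTCF peak of the 8 WT libraries lay at Serbp1 or Ptms, 2 NPC libraries had one at Hist4h4, and none of the 3 sites held the motif.

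The intron of Gm26510 and the regions near Arl14ep, Gipc2, Sfxn1, a mitochondrial serine transporter gene, and Bbc3, which encodes the pro-apoptotic protein PUMA, followed, with introns of Clybl and Nfic, a nuclear factor I gene. Bbc3 (chromosome 7, 16318229 to 16319315) had a fold enrichment of 10.9 and 15.8 in NPCs, against 4.84 and 6.73 in ESCs, and no CTCF or Smc3 peak in the WT line. At Nfic (chromosome 10, 81450085 to 81450458), a site with the motif and with CTCF in all 8 WT libraries, it was 11.3 and 12.5 in NPCs, against 4.52 and 6.61 in ESCs. The Nfic summits held 38 and 71 fragments in NPCs, against 41 and 94 in ESCs, so the higher fold enrichment did not go with more fragments. With ranks of the q-value the Nfic site (limma adjusted p = 0.193) and the Gipc2 site (limma adjusted p = 0.104) did not pass the threshold. Sites wider than 1000 bp made up 15.1% of the 106 sites, against 4.55% of the 88 that ranked lower and 3.23% of all shared sites. No CTCF peak was found at 13.2%, 6.82% and 4.56%, and the motif at 72.6%, 85.2% and 83.0%.

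Like shared sites in general, those that ranked lower in NPCs were mostly CTCF sites. The motif lay at 85.2% of these 88 sites, against 83.0% of all shared sites, and 6.82% had no CTCF peak, against 4.56%. The first lay near BC051077 (chromosome 5, 117307661 to 117307996), with a fold enrichment of 3.06 and 5.13 in NPCs, against 11.1 and 14.8 in ESCs (−3.67 ± 0.49, SE, n = 2 each, limma adjusted p = 0.00273). Near Psrc1, a microtubule-associated protein gene (chromosome 3, 108389199 to 108389634), it was 3.38 and 4.204 in NPCs, against 8.00 and 12.1 in ESCs (−3.02 ± 0.40, limma adjusted p = 0.00273). Near Prex1, a Rac exchange factor gene (chromosome 2, 166563861 to 166564236), it was 5.33 and 6.36 in NPCs, against 10.1 and 13.9 in ESCs. The others among the first 10 lay near Gm2379, Fam53a, 1600010M07Rik and Gm23536 and in introns of Morn1, Gm20110 and Gm20388. Except at Gm2379, where no WT CTCF library had a peak, CTCF was called in at least 7 of the 8 WT libraries at each of them.

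**Figure D5:**
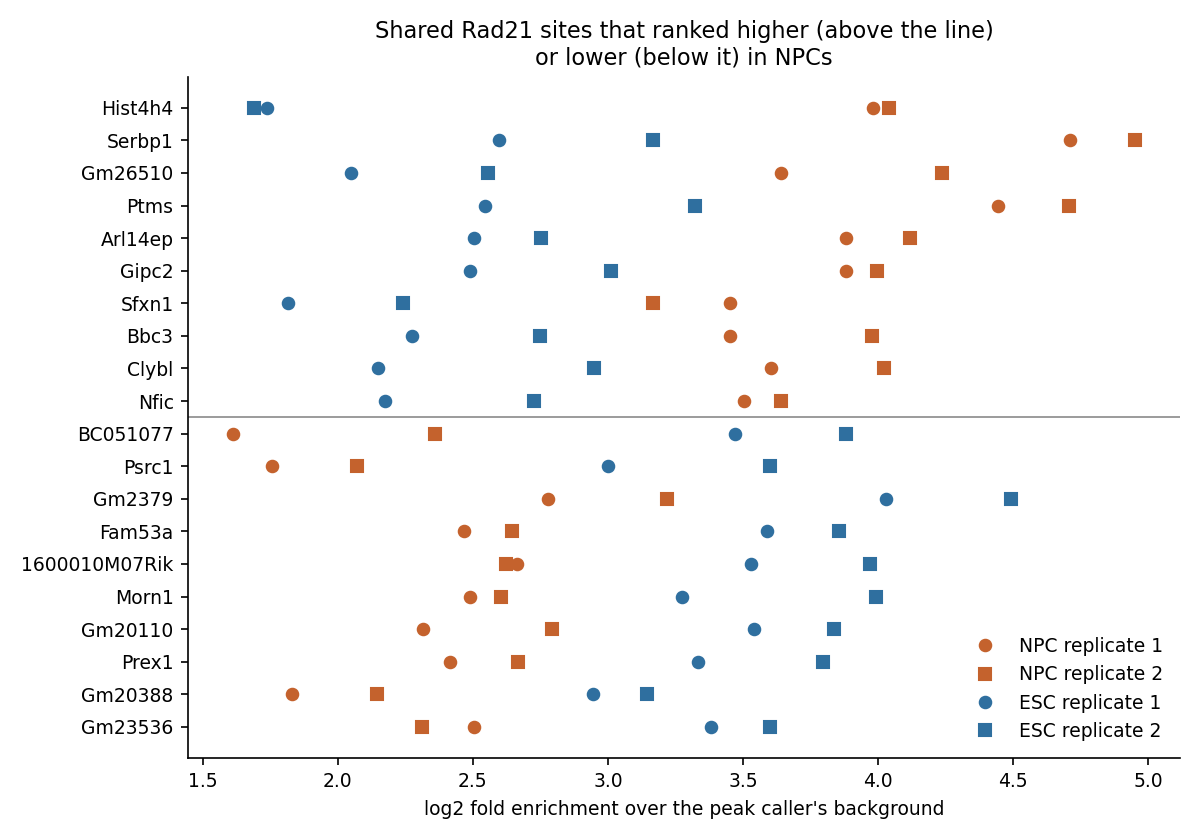
Fold enrichment at the summit over the peak caller's local background (horizontal axis, log2 scale) in each of the 4 libraries, for the 10 shared Rad21 sites with the lowest p that ranked higher in NPCs (above the line) and the 10 that ranked lower (below it). Circles are replicate 1 and squares replicate 2, NPC in orange and ESC in blue. At all 20 sites the NPC and ESC libraries do not overlap, which the choice of sites by this test makes likely.

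Smc3 and Rad21 ΔZF1 libraries, which were not in that test, ranked the 106 sites higher relative to the 88 in NPCs than in ESCs, with full lists and at equal list length. Among the peaks of a WT Smc3 library, the 106 sites had a median percentile of q-value of 95.9 and 89.8 in NPCs, against 83.4 and 55.7 in ESCs, with a site without a peak set to 0. The 88 sites had 94.6 and 86.8 in NPCs, against 97.2 and 93.4 in ESCs. In the Rad21 ΔZF1 libraries the 106 sites had 85.1 and 88.0 in NPCs, against 0 and 23.9 in ESCs, and the 88 sites 43.7 and 56.0 in NPCs, against 50.2 and 71.9 in ESCs. The 106 sites minus the 88 thus gave 1.25 and 3.07 for Smc3 in NPCs, against −13.8 and −37.7 in ESCs, and 41.5 and 32.0 for Rad21 ΔZF1 in NPCs, against −50.2 and −48.0 in ESCs. These lists differ in length, and their q-values also depend on local background. Whether the libraries share inputs with those of the test is not known, and its effect on this agreement was not tested. Reduced to 8169 peaks each, the Smc3 lists gave 4.24 and 5.15 in NPCs, against −30.2 and −37.7 in ESCs. Reduced to 1306 peaks each, the Rad21 ΔZF1 lists covered 67.9% and 72.6% of the 106 sites in NPCs, against 36.8% and 33.96% in ESCs, and 29.5% and 29.5% of the 88 sites in NPCs, against 67.0% and 68.2% in ESCs. For the WT CTCF libraries the 106 sites minus the 88 lay between −20.8 and −8.65 in NPCs and between −38.7 and −6.65 in ESCs with full lists, where the cell types overlapped, and between −24.9 and −22.4 in NPCs and between −38.7 and −25.5 in ESCs at 11189 peaks each.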

How the data were processed

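The study made ChIP-seq libraries with antibodies to Rad21, Smc3 and CTCF and sequenced them as paired ends. The authors aligned reads to mm10 with Bowtie2, dropped alignments with mapping quality under 30 using SAMtools, duplicates using Picard and blacklisted regions using bedtools, and ran MACS2 on each sample at q 0.01. Tool versions and the input paired with each library are not given in the sources used here. Inputs are listed for the WT rescue line and parental E14 NPCs but not for the ΔZF1 line, so libraries may share an input. The deposited lists give a fold enrichment, which is a ratio to local background, the −log10 of p- and q-values, and a score derived from q by the authors' caller. Differential binding on reads was not run, as no reads per region were analysed.

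Peaks overlapping by 1 bp or more were merged into sites. Summit fragments were recovered from fold and p for peaks with −log10 p under 250, and 100% of these came out whole within 0.002. Sites were assigned to GENCODE M21 genes, to the gene whose body or 1 kb upstream held the summit, otherwise to the nearest TSS. Named were the 10 strongest NPC-only and ESC-only sites, the 5 strongest shared sites, the 10 lowest limma p-values in each direction, listed genes with a switched site, and Podxl and Grb10. Scores were compared with limma 3.58.1 (R 4.3.3), library values by exact permutation, in Python 3.11.15. Tested on simulated data for the 2106 shared sites, limma called 62.1% of sites shifted by 2 SD, 77.9% of those shifted by 3 SD, 1.52% of those shifted by 1 SD and 0 of 1906 unshifted sites. The simulated noise was independent between libraries and held no library effect, so these rates need not hold for the real calls. Genome sequence was read from GRCm38. The alternatives were equal peak numbers, a stricter q, summit-based sites, other rank values, a replicate block and leaving out each library. Equal lengths for the Smc3 and Rad21 ΔZF1 readouts and for the readouts of the limma calls, and the CTCF comparison without replicate 4, were added after seeing the data. The members and lists were chosen with earlier results of these data known. The labels do not say that replicates were separate cultures, so p-values measure only the spread between these libraries. Inputs and the lists of the polyA lines were not used here.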

Additional observations from a re-analysis of the deposited data

Results flagged for a closer look

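The 4 groups of 4 CTCF libraries were checked on 4 quantities each for a library far from the other 3. Of these 16 checks, which are not independent and where chance gives about 1 in 20, 2 found one. The ΔZF1 ESC replicate 1 list held 45941 peaks, against 15779 to 17092 in the other ΔZF1 ESC lists. In ΔZF1 NPC replicate 2 the share of NPC-only Rad21 sites with a CTCF peak lay 21.8 points under the share of ESC-only sites (−21.8), against −9.71 to −7.27 points in the other ΔZF1 NPC libraries. Without that library the ΔZF1 difference between NPCs and ESCs was 9.81 points (exact permutation test, p = 0.0571).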

How the results depend on the processing

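The counts of NPC-only and ESC-only sites stayed within 1.5 times of 422 and 426 at equal peak numbers by q-value or by fold, with −log10 q of at least 5 and with summit-based sites (373 to 541 and 363 to 431). They did not when a library was left out (445 to 2019 and 539 to 3930) or with same-numbered libraries only, where number 1 gave 2509 and 1271 and number 2 gave 2080 and 4349. These settings require fewer libraries by construction. Leaving out a library gave 33.5% to 88.9% of NPC sites and 34.4% to 83.5% of ESC sites retained in the other cell type. Equal peak numbers gave 58.0% for NPC sites, equal numbers by fold 49.7% and 60.7%, and same-numbered libraries 47.4% (number 1) and 74.4% (number 2) for NPC sites and 58.2% (number 2) for ESC sites. The log2 difference in peak number ran from −0.74 to 0.82 with a library left out and turned negative without NPC replicate 2 (−0.35) or ESC replicate 1 (−0.74). Of shared sites, 106 higher and 88 lower became 25 and 11 with ranks of the q-value, 58 and 44 with the replicate block, and 21 to 89 and 25 to 85 with a library left out, where the lone library is assumed to vary like the other group. Same-numbered Rad21 libraries deviated together only weakly (correlation 0.092 over 2106 sites), and 2 pairs cannot establish that the numbers pair the samples. The replicate block left the CTCF differences at 5.66 (WT) and 6.42 points (ΔZF1), each with an exact permutation p of 0.125. The WT CTCF difference was 16.3 points at equal CTCF list lengths and 2.92 to 8.18 points with a library left out (8.18 without ESC replicate 1, exact permutation p = 0.0286), and 4.46 to 9.81 for ΔZF1. At equal list lengths the Rad21 ΔZF1 difference was 14.02 and the Smc3 ΔZF1 difference 39.3 points. A motif without mismatch lay at 32.5% of NPC-only and 39.9% of ESC-only sites, within 100 bp the motif lay at 82.6% of ESC-only sites, and a TSS lay within 5 kb at 42.2% and 46.0%. The cause of these changes was not tested. Of the 27 switched sites that the naming rule chose 20 remained so at equal peak numbers, and of the 15 chosen for support by other cohesin libraries 6 of 14 NPC-only and 0 of 1 ESC-only sites did. Depth and local background limit every call of absence, since a site without a peak may hold fragments that did not pass the q-value threshold.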
